A study of Homo sapiens with 12 samples.

Results

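The regulators described here are 10 genes whose products set or end signalling from the tumour necrosis factor (TNF) receptor by adding, editing or reading ubiquitin chains. They are TNFAIP3, TNIP1, TNIP2, CYLD, BIRC2, BIRC3, TRAF1, TRAF2, TRAF3 and RIPK1. They were taken by gene symbol from the 58735 genes of the expression table, and each of the 10 symbols had a row. The rule uses no measured value, but the list was drawn up with earlier results of these data known. All 10 passed the filter on low values (mean of at least 0.1 FPKM over the 12 libraries), which left 18079 genes for testing. FPKM counts fragments per kilobase of a gene's exons, scaled to the size of the library, so it is a level per length. The length used is that of all annotated exons of a gene joined. It exceeds the longest transcript by unequal amounts (5793 against 2935 bases for TNIP1, 4532 against 4073 for BIRC2). Levels of different genes, and ratios between them, can therefore be compared only roughly.

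The libraries came from NCM460, a line labelled as normal epithelial cells of the human colon. There were 4 groups of 3 RNA-seq libraries. The first group was wild-type cells in medium. The second was wild-type cells given TNF-α, and the third was wild-type cells given TNF-α and Bufotenidine, the compound that the study's methods describe as 5-hydroxy-N,N,N-trimethyltryptamine, a quaternary ammonium derivative of bufotenine. The fourth was cells labelled HTRA2 knockdown, also given TNF-α. HTRA2 is a mitochondrial serine protease that binds inhibitor of apoptosis proteins once it is released into the cytosol. The study's text names a concentration of the compound, picked as not toxic, for its work on mechanism in NCM460 cells, without tying it to these libraries, and their doses and durations are not given in the sources used here. The labels of the TNF-α libraries give a wild-type genotype and name no small interfering RNA (siRNA), while the study's text speaks of a control siRNA for its knockdown comparison. Which of these holds for the TNF-α libraries could not be settled, so an effect of transfection and an effect of HTRA2 loss cannot be told apart in the knockdown comparison. Nothing says that the 3 libraries of a group came from separate cultures, so the p-values measure only the spread between these libraries, which may be technical.

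Ligand binding gathers TRADD, RIPK1 and TRAF2 at the receptor. TRAF2 brings in BIRC2 and BIRC3 (cIAP1 and cIAP2), ubiquitin ligases that put chains on RIPK1. The chains are platforms for the kinases that lead to NF-κB. TNFAIP3 (A20), an enzyme that edits ubiquitin chains, acts with TNIP1 and TNIP2 (ABIN1 and ABIN2), which bind chains and A20, and CYLD cuts chains down. All of these dampen the signal to NF-κB. A20 and ABIN1 also keep cells from dying in response to TNF, whereas the removal of chains from RIPK1 by CYLD can favour death. TRAF3, with TRAF2 and the BIRC proteins, holds down the kinase of the non-canonical NF-κB arm, and TRAF1 lacks the ligase domain of its relatives and joins TRAF2 in mixed trimers. Several of these genes are known targets of NF-κB and so form feedback loops, and variants near TNFAIP3 and TNIP1 are known for their links to inflammatory disease.

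The promoters were read from RefSeq on GRCh38.p14, as windows of 300 bases (250 before and 50 from each annotated transcription start). All 10 genes had at least 1 window, and there were 18 in all. They were searched on both strands for the NF-κB consensus (the site bound by p50 and p65), for the AP-1 site TGANTCA and for the core of the interferon-stimulated response element (ISRE). The motifs were chosen after the levels of the genes had been seen. The NF-κB consensus was found in 6 of the 18 windows, which belong to 5 of the 10 genes, and in 5.91% of all 35116 promoter windows of the table. The windows below are the ones of the 5 genes that the results turn on, followed by a window of BIRC2, the close relative and chromosomal neighbour of BIRC3, for contrast. Capitals mark the bases that match the NF-κB consensus on either strand, and each sequence runs 5′ to 3′ on the strand of its gene.
TNFAIP3, chr6:137867009-137867308, plus strand: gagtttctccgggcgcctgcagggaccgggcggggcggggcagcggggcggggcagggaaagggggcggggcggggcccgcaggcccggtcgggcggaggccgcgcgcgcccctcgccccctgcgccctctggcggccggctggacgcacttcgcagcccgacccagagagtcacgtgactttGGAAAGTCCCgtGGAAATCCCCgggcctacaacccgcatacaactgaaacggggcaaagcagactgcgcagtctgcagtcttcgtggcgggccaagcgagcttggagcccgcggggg
BIRC3, chr11:102317234-102317533, plus strand: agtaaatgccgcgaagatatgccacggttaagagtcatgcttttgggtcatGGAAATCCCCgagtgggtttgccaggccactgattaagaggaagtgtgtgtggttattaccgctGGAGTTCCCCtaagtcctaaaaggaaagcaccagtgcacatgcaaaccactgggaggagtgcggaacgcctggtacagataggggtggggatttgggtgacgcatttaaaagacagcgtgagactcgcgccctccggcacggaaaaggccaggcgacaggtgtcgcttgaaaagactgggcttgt
TNIP1, chr5:151080985-151081284, minus strand: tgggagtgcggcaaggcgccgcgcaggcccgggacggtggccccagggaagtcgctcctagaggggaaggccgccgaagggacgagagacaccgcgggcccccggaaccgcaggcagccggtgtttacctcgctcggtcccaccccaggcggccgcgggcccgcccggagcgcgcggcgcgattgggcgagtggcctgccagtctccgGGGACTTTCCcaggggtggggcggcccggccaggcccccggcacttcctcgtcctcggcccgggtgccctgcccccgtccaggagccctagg
TRAF3, chr14:102777199-102777498, plus strand: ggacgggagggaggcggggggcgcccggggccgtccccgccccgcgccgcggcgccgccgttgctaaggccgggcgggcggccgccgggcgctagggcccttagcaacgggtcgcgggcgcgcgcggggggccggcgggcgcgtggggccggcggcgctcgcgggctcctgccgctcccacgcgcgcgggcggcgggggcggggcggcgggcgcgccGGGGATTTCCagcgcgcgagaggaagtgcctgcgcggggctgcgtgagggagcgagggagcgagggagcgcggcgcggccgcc
CYLD, chr16:50741836-50742135, plus strand: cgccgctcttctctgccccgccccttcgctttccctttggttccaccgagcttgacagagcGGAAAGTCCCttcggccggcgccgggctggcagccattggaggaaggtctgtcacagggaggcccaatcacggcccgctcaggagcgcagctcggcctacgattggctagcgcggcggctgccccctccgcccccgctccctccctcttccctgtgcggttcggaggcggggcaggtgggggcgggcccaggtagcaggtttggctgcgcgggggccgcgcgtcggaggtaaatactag
BIRC2, chr11:102346964-102347263, plus strand: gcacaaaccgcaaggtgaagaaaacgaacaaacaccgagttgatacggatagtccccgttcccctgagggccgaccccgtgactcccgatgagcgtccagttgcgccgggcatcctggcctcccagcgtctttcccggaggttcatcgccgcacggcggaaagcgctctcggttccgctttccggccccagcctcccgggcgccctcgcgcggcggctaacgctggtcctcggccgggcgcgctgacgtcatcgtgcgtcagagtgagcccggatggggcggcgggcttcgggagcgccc

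TNFAIP3 had 2 matches, which began 67 and 55 bases before the start and were separated by a pair of bases. BIRC3 had 2, which began 199 and 135 bases before it. TNIP1 had 1, 42 bases before the start of its second window, and none in its other window. TRAF3 had 1, which began 33 bases before the start, and CYLD had 1 that began 189 bases before the start shown and another that began at the start itself in a further window. No match to the NF-κB consensus was in the windows of BIRC2, TNIP2, TRAF1, TRAF2 or RIPK1. The AP-1 site was in none of the 18 windows (7.71% of all windows held it), and the ISRE core was in 1 gene, RIPK1, in 2 overlapping windows (3.57% of all). A match is a likeness of letters in these windows and says nothing of binding.

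In medium the 10 genes lay far apart in level. TNIP1 was the highest at 34.1 ± 2.85 FPKM (SD, n = 3), ahead of TNIP2 at 18.9 ± 2.23 and TRAF2 at 15.5 ± 1.36, and the libraries of the latter pair overlapped. TRAF3, BIRC2 and RIPK1 lay between 4.59 and 7.38 FPKM in every medium library. The chain-cutting CYLD had 2.15 ± 0.282 FPKM, and TNFAIP3, eighth of the 10, had 1.22 ± 0.0965. BIRC3 was at 0.602 ± 0.204 FPKM and TRAF1 at 0.0992 ± 0.0243, which rested on 16 to 28 reads per library. With TNF-α, TNFAIP3 moved from the eighth place to the second.

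The libraries held 31008429 to 37624399 reads on genes. At that depth a count of 3 reads in a gene of 1 kilobase is worth 0.0805 to 0.0962 FPKM, a limit that covers counting error only. HTRA2 was at 7.44, 7.18 and 7.22 FPKM in the knockdown libraries and at 13.3 to 17.2 in the other 9, so the targeted transcript was at 0.502 of its TNF-α mean (log2 change −0.98 ± 0.087, SE; limma, adjusted p = 2.8e-05). Of 12 markers of colon epithelium, 5 had a mean of at least 1 FPKM (KRT8, KRT18, CDH1, EPCAM and KRT19). CDX2 and CEACAM5 were at 0 in every library, VIL1 and CDX1 were close to 0, and all 5 markers of basal or squamous epithelium had a mean of at least 1. The summed level of 7 leukocyte markers was at most 0.885 FPKM. Knockdown replicate 2 stood apart from the other knockdown libraries: 2.95% of its reads were mitochondrial, against 3.69% to 4.68% in the other 11 libraries.

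**Figure D1:**
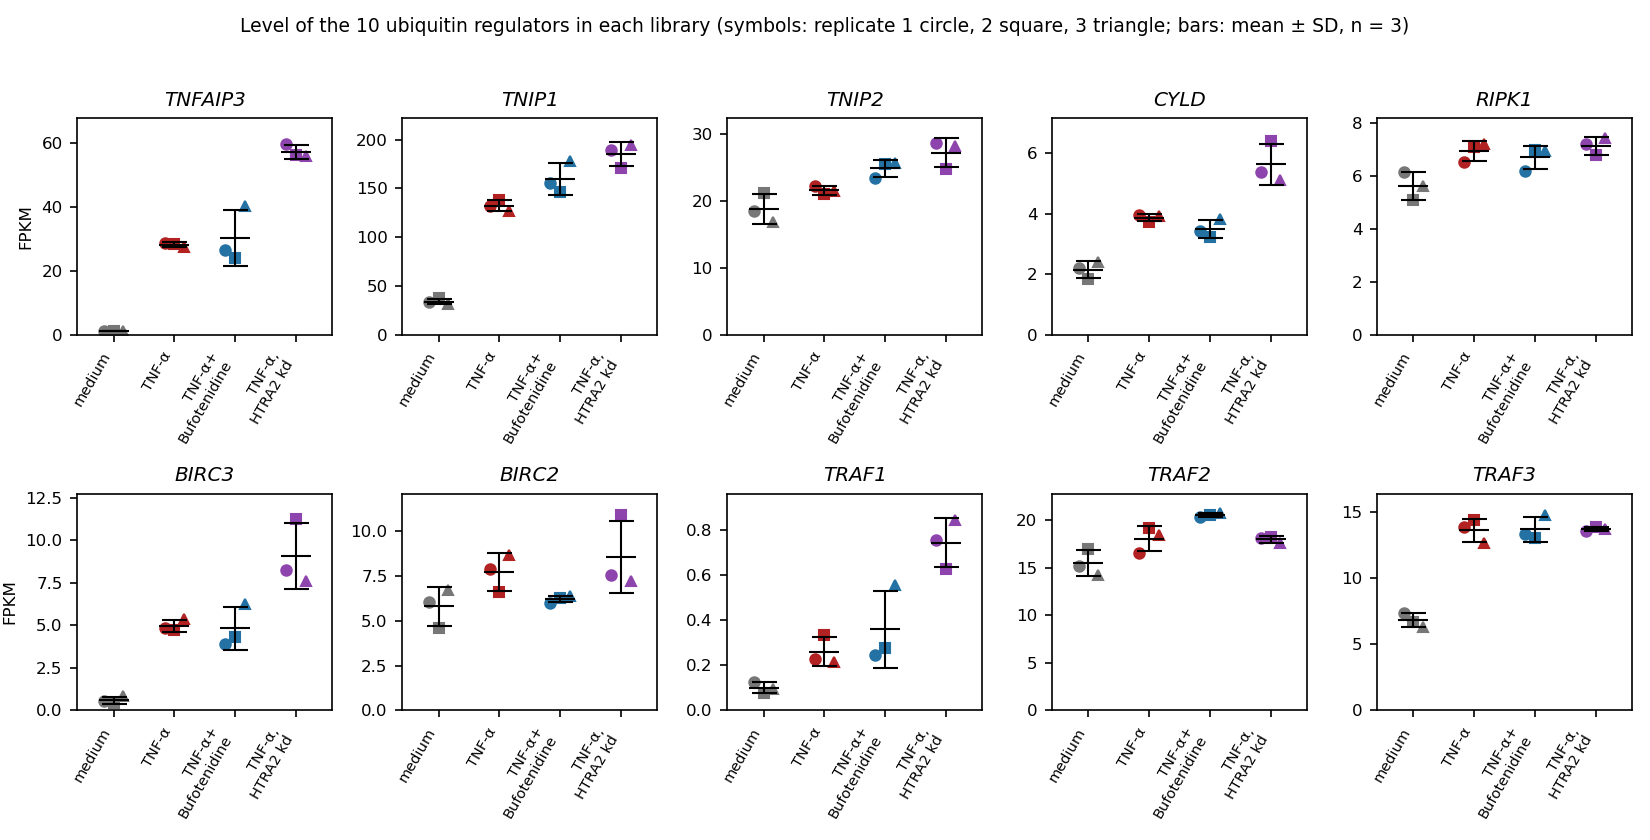
Level of each regulator in FPKM (y axis, from 0) in the 12 libraries, by group; symbols are single libraries and bars the mean ± SD of 3. TNFAIP3 is near the bottom of its panel in medium (1.22 FPKM) and highest with TNF-α and HTRA2 knockdown (57.3 FPKM), while TRAF3 reaches the same level in all 3 groups given TNF-α (13.6 to 13.7 FPKM).

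TNF-α against medium asked what the cytokine did to its own regulators. The TNF-α-induced set held the chain editor TNFAIP3, its partner TNIP1, the ligase BIRC3, the adaptor TRAF3 and the deubiquitinase CYLD. These 5 of the 10 rose and none fell (adjusted p under 0.05, limma on log2 of FPKM + 0.1 with Benjamini-Hochberg adjustment over all 18079 genes, where 3.22% of genes rose). By the study's rule for a differential gene (fold of at least 2, unadjusted p of at most 0.05), with the fold taken on FPKM + 0.1, the members were TNFAIP3, TNIP1 and BIRC3, 3 of 10 against 1.76% of all genes that rose by that rule. With the fold taken as the ratio of mean FPKM, a choice made after the data were seen, TRAF1 (2.61) and TRAF3 (2.001) were added, 5 of 10 against 2.1% of all genes. The median change of the 10 was 0.84 on the log2 scale, against −0.00 over all genes tested. Of 2 tested endothelial markers CDH5, a junction protein of endothelium, rose as well (from 0.335 to 1.32 FPKM, log2 1.71, adjusted p = 0.00011), and the sum of the 4 endothelial markers was 0.491 to 0.597 FPKM in medium and 1.42 to 1.57 with TNF-α. No tested marker of colon, basal, fibroblast or leukocyte lists was called, and the part of this rise in the result was not tested.

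TNFAIP3, the gene for A20, was at 1.22, 1.31 and 1.12 FPKM in medium and at 28.9, 28.5 and 27.4 FPKM with TNF-α. The 3 treated libraries lay close together and far above the medium libraries, with 4490 to 5347 reads against 184 to 214. The change was 4.43 ± 0.15 on the log2 scale (SE; adjusted p = 9.2e-09), a 21.6-fold rise and the largest of all 18079 genes by this measure. TNIP1, whose protein brings A20 to its substrates, had 33.4, 37.3 and 31.7 FPKM in medium. With TNF-α it had 132, 139 and 127 FPKM, a change of 1.95 ± 0.086 (adjusted p = 1.3e-07). It rose from the highest level of the 10 and so gained the most FPKM, although its fold, 3.88, was smaller than that of TNFAIP3. TNIP2, the other A20-binding partner in the list, had 18.5, 21.3 and 16.8 FPKM in medium and 22.3, 21.1 and 21.5 with TNF-α. The TNIP2 libraries overlapped, and its change of 0.20 did not pass the test (95% confidence interval 0.01 to 0.39, adjusted p = 0.3).

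CYLD, which removes chains from RIPK1 and other targets, had 2.21, 1.84 and 2.40 FPKM in medium and 3.96, 3.73 and 3.93 FPKM with TNF-α. The groups did not overlap, and the change was 0.83 ± 0.12 (adjusted p = 0.0011). RIPK1, the kinase that carries the chains, had 6.14, 5.09 and 5.61 FPKM in medium against 6.54, 7.10 and 7.23. Its libraries did not overlap either, but the change of 0.31 (interval 0.12 to 0.49) missed the threshold (adjusted p = 0.076).

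Of the ligases, BIRC3 had 0.553, 0.427 and 0.827 FPKM in medium and 4.83, 4.73 and 5.39 with TNF-α. It rose 7.43-fold (log2 2.89 ± 0.22, adjusted p = 9.6e-06). BIRC2 had 6.08, 4.59 and 6.75 FPKM in medium and 7.90, 6.62 and 8.69 with TNF-α. These libraries overlapped, and the change of 0.42 did not pass (interval 0.05 to 0.78, adjusted p = 0.25). The level of BIRC3 as a ratio to that of BIRC2 was thus 0.0909, 0.0929 and 0.122 in the medium libraries and 0.612, 0.715 and 0.620 in the TNF-α libraries. In an exact permutation test the 2 groups gave p = 0.1, the smallest value that 3 against 3 libraries allow.

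Of the TRAF adaptors only TRAF3 was called. TRAF3 had 7.38, 6.70 and 6.33 FPKM in medium and 13.8, 14.4 and 12.6 with TNF-α, a 1.99-fold rise with no overlap (log2 0.99 ± 0.078, adjusted p = 1.1e-05) on the scale of FPKM + 0.1, just under the 2-fold rule that its ratio of mean FPKM just met. TRAF2 had 15.2, 17.0 and 14.3 FPKM against 16.6, 19.2 and 18.4. Its libraries overlapped, and the change of 0.22 did not pass (interval 0.06 to 0.38, adjusted p = 0.15). TRAF1 had 0.125, 0.0773 and 0.0949 FPKM in medium and 0.228, 0.333 and 0.216 with TNF-α. All treated TRAF1 libraries were above all medium ones, but with 16 to 67 reads per library the change of 0.84 (interval 0.24 to 1.44) did not pass (adjusted p = 0.14). In 7 of the 10 genes every TNF-α library was above every medium library, which held for 11.1% of all genes.

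At an adjusted p under 0.05, the 5 genes that rose with TNF-α were the same 5 genes whose promoter windows held the NF-κB consensus. The match of the sets depended on that threshold. At an unadjusted p under 0.05 (limma) all 10 members were higher, with or without a match, against 8.87% of all genes. TRAF1, without a match, changed by 0.84 on the log2 scale, and CYLD, with matches, by 0.83. By the 2-fold rule on the ratio of mean FPKM, TRAF1 was a member and CYLD was not. Over all tested genes that had a promoter in the table (10551 of 18079), 940 had a match and 9.26% of those rose with TNF-α, against 3.38% of the 9611 genes without a match. This is a description of the match and the calls side by side, with motifs that were chosen when the levels were known.

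**Figure D2:**
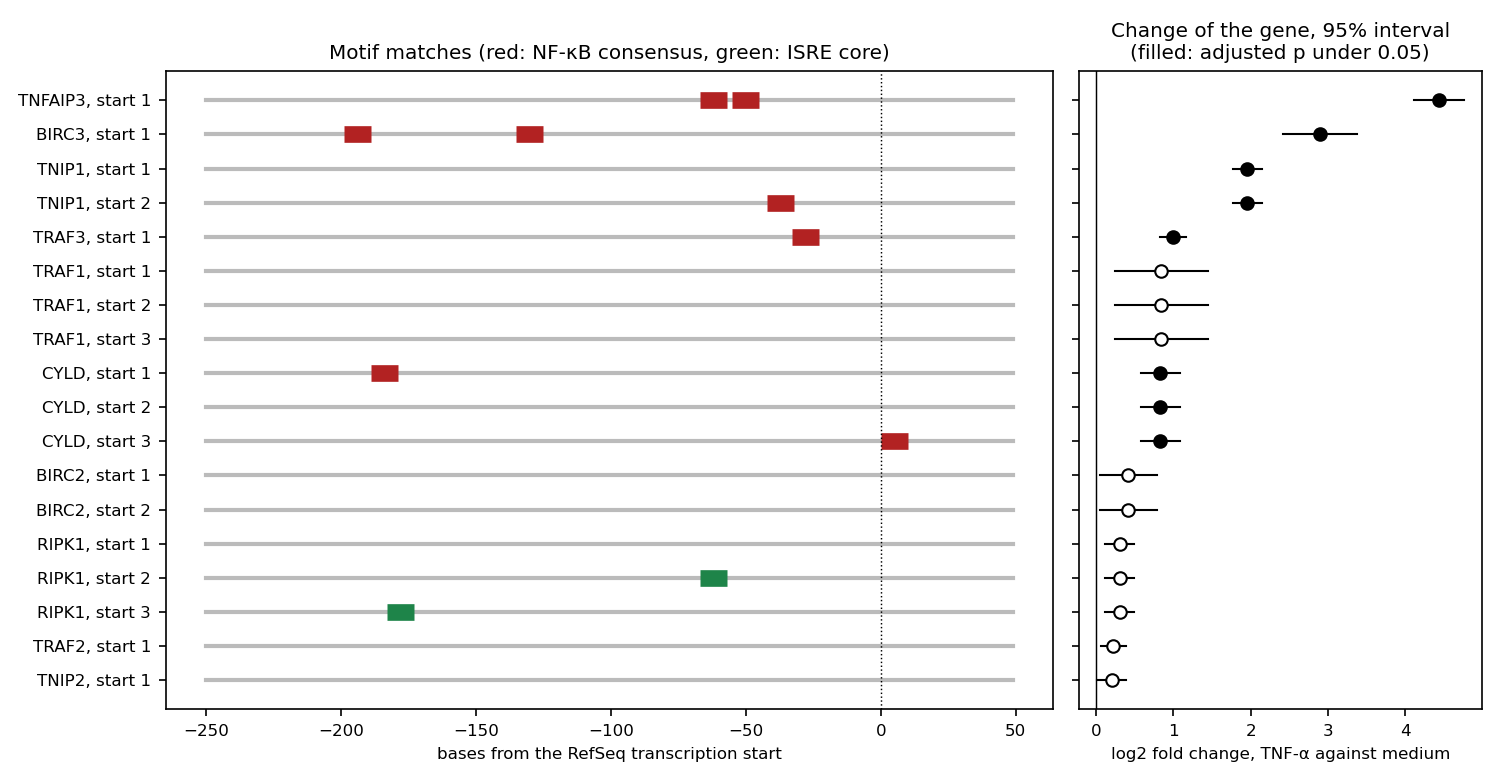
Left, position of motif matches in the 18 promoter windows (x axis, bases from the RefSeq start; red, NF-κB consensus; green, ISRE core), with the gene that changed most at the top. Right, log2 fold change with TNF-α and its 95% interval for the gene of each window (filled where the adjusted p was under 0.05); red marks occur only in rows of the 5 genes with filled points.

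TNF-α+Bufotenidine against TNF-α asked whether the compound changed these levels in stimulated cells. No member was called in either direction, where 0.0387% of all genes (7 genes) were. By limma voom on whole reads recovered from the FPKM values, again none of the 10 was called. At an unadjusted p under 0.05 there were 3 members, TNIP1, TNIP2 and TRAF2, all higher with the compound in every library, against 9.6% of all genes that were higher at that level. BIRC2 had every library lower, and the 4 of 10 that did not overlap compare with 31.8% of all genes. The median change of the 10 was 0.03, with 6 above 0.

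TNIP1 had 155, 147 and 178 FPKM with the compound, each above the highest TNF-α library (139 FPKM). The change was 0.27 (interval 0.08 to 0.46, adjusted p = 0.14). TNIP2 had 23.5, 25.5 and 25.8 FPKM, a change of 0.20 (interval 0.01 to 0.40, adjusted p = 0.23). TRAF2 had 20.3, 20.6 and 20.8 FPKM, a change of 0.19 (interval 0.03 to 0.35, adjusted p = 0.19). These are small differences with lower bounds close to 0 that did not pass adjustment. BIRC2, the only member with all libraries lower, had 6.01, 6.27 and 6.39 FPKM (log2 −0.30, interval −0.67 to 0.07, adjusted p = 0.34).

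TNFAIP3 had 26.5, 24.1 and 40.4 FPKM with the compound. Replicate 3 was far above the TNF-α libraries and the other 2 were below all of them, so the change of 0.06 (interval −0.26 to 0.39) was an average of both directions. Without that library it was −0.16 (adjusted p = 0.36). That library was the highest of its group for 9 of the 10 members, all but RIPK1 (not counted over all genes). It was so for BIRC3 (3.92, 4.30 and 6.27 FPKM), TRAF1 (0.247, 0.275 and 0.556 FPKM) and CYLD (3.43, 3.24 and 3.83 FPKM). Without it the BIRC3 change was −0.27 (adjusted p = 0.55), the TRAF1 change 0.02 (adjusted p = 0.98) and the TNIP1 change 0.19 (adjusted p = 0.33). The intervals of the log2 change over all libraries were −0.55 to 0.41 for BIRC3, −0.29 to 0.91 for TRAF1 and −0.40 to 0.11 for CYLD. TRAF3 (13.3, 13.0 and 14.7 FPKM) and RIPK1 (6.21, 6.98 and 6.94 FPKM) had narrower ones, −0.16 to 0.18 and −0.24 to 0.14. A change larger than these bounds is outside the intervals. They are for single genes without adjustment and do not give the smallest change that 3 libraries could have shown.

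**Figure D3:**
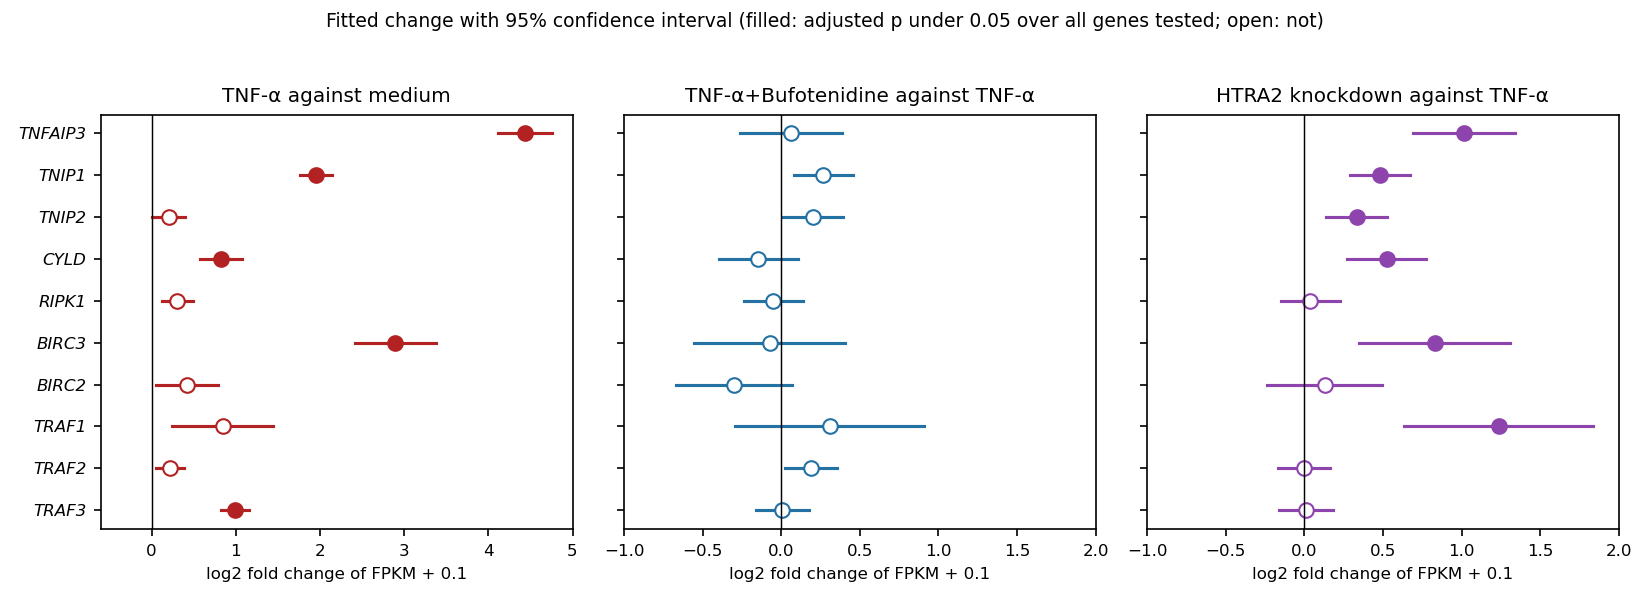
Fitted log2 fold change of FPKM + 0.1 for each of the 10 genes (x axis; points) with 95% confidence intervals (lines) in 3 comparisons; filled points have an adjusted p under 0.05 over all genes tested, and the x range of the first panel is wider. There are 5 filled points with TNF-α, 0 with the compound and 6 with HTRA2 knockdown, all of them to the right of 0.

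HTRA2 knockdown against TNF-α compared stimulated cells with and without the knockdown, and it shares the TNF-α libraries with both comparisons above. Here TNFAIP3, TNIP1, TNIP2, CYLD, BIRC3 and TRAF1 rose, 6 of the 10, and none fell, where 9.35% of all genes rose. TRAF2, TRAF3, RIPK1 and BIRC2 were not called. By the 2-fold rule the members were TNFAIP3 and TRAF1, 2 of 10 against 3.08% of all genes that rose by that rule. The median change was 0.41 for the 10 and −0.00 for all genes. Every knockdown library was above every TNF-α library in the same 6 genes (17.5% of all genes were higher without overlap).

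TNFAIP3, TNIP1, CYLD and TNIP2, the members described above as dampening the signal to NF-κB, were among the 6 that rose. Of the members described as holding down the kinase of the non-canonical arm, BIRC3 rose, and TRAF3, TRAF2 and BIRC2 were not called. In the list of other deubiquitinases and ubiquitin-binding partners, 1 of 7 tested genes rose. TNFAIP3 reached 59.9, 56.2 and 55.8 FPKM, each far above the highest TNF-α library, with a change of 1.02 ± 0.15 (adjusted p = 7e-04). TNIP1 reached 189, 171 and 194 FPKM (0.48 ± 0.086, adjusted p = 0.0026). CYLD had 5.39, 6.41 and 5.11 FPKM (0.52 ± 0.12, adjusted p = 0.0085). TNIP2, which TNF-α alone had not moved past the threshold, had 28.7, 24.9 and 28.3 FPKM (0.33 ± 0.088, adjusted p = 0.022). The TNIP2 call rested on most of its libraries: it was lost without TNF-α replicate 2 or 3 or without knockdown replicate 1 or 3 (adjusted p = 0.061 to 0.087).

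BIRC3 had 8.27, 11.3 and 7.62 FPKM, a change of 0.83 ± 0.22 (adjusted p = 0.022). The highest was replicate 2, the library with the low mitochondrial share, which also had the highest BIRC2 (10.9 FPKM) and CYLD of its group. Without that library the BIRC3 change was 0.66 (adjusted p = 0.071), and the call was also lost without TNF-α replicate 1 or 2 or knockdown replicate 1 (0.052 to 0.076). BIRC2 had 7.55, 10.9 and 7.23 FPKM, which overlapped TNF-α alone (log2 0.13, interval −0.24 to 0.50), and −0.06 without replicate 2. The BIRC3 to BIRC2 ratio was even between the knockdown libraries at 1.10, 1.03 and 1.05, above the TNF-α libraries (exact permutation p = 0.1, the smallest possible).

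TRAF1 had 0.756, 0.628 and 0.842 FPKM, from 146 to 198 reads. The change of 1.24 ± 0.28 (adjusted p = 0.009) was the largest of the 10. The ratio of TRAF1 to TRAF2 was 0.0418, 0.0343 and 0.0479 in these libraries against 0.0138, 0.0174 and 0.0117 with TNF-α (exact permutation p = 0.1, the smallest possible), so TRAF1 stayed far below TRAF2 in all groups. TRAF2 (18.1, 18.3 and 17.6 FPKM), TRAF3 (13.6, 13.8 and 13.7 FPKM) and RIPK1 (7.21, 6.78 and 7.43 FPKM) lay inside or across the range of the TNF-α libraries. Their log2 changes were −0.00, 0.01 and 0.04, with intervals of −0.16 to 0.16, −0.16 to 0.18 and −0.15 to 0.22.

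Interferon-stimulated genes moved with the knockdown. All 20 of a list of 20 rose against TNF-α alone, and their summed level was 1358 to 1480 FPKM in the knockdown libraries, 702 to 859.9 with TNF-α and 777 to 834 with the compound. With TNF-α against medium 6 of the 20 rose, and with the compound against TNF-α 0 did. Of the 5 basal or squamous markers 3 rose and 1 fell, with a sum of 213 to 262 FPKM in the knockdown libraries against 177 to 193 with TNF-α. Of 2 tested endothelial markers 1 rose (sum of 4 markers 2.21 to 3.62 FPKM against 1.42 to 1.57), and of 2 tested fibroblast markers 1 rose and 1 fell (sum of 7 markers 4.21 to 4.37 FPKM against 5.08 to 6.23). The 1 tested leukocyte marker rose (sum of 7 markers 0.421 to 0.885 FPKM against 0.118 to 0.274), and of 5 tested colon markers 2 rose (sum of 12 markers 2118 to 2387 FPKM against 2260.5 to 2509). The part of these genes in the rise of the 6 regulators was not tested, and in bulk libraries a change in the kinds of cells cannot be told apart from a change in RNA per cell. In promoter terms, 4 of the 5 members with an NF-κB match and 2 of the 5 without rose with knockdown, against 17.4% of all genes with a match and 10.6% of those without.

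**Figure D4:**
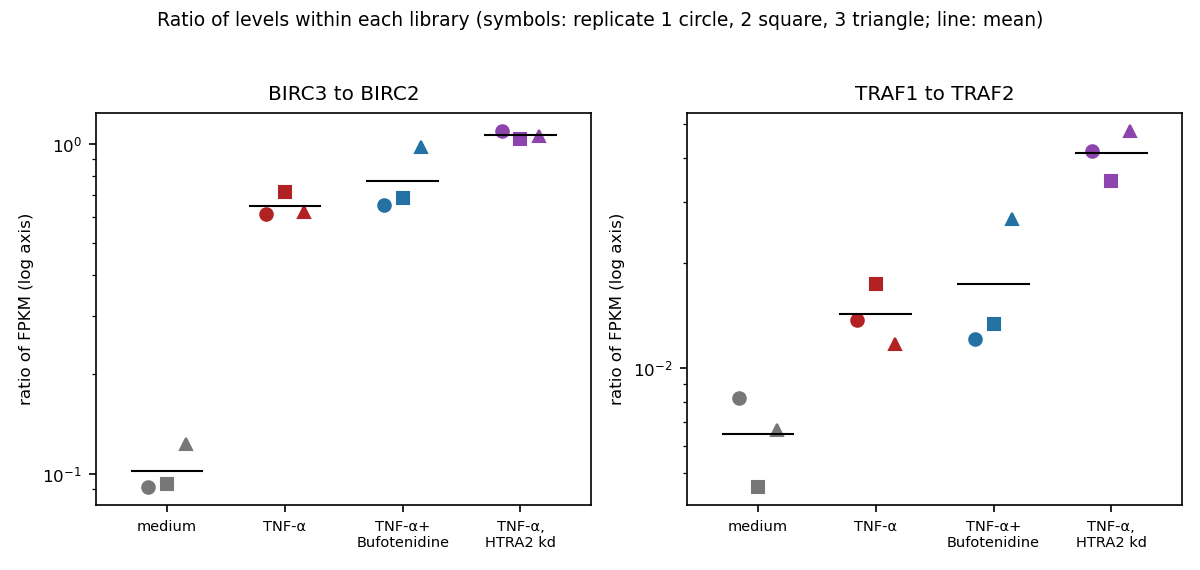
Ratio of BIRC3 to BIRC2 (left) and of TRAF1 to TRAF2 (right) in FPKM within each library, on log y axes; symbols are single libraries and lines the mean of 3. The BIRC3 ratio is 0.102 in medium, 0.649 with TNF-α, 0.773 with TNF-α and the compound and 1.06 with knockdown on average, and compound replicate 3 (triangle) lies above the other 2 in both panels.

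Against medium, all 3 stimulated groups were higher in the members that were called. These comparisons share the medium libraries. With TNF-α+Bufotenidine 8 of 10 rose (4.99% of all genes), all but BIRC2 and RIPK1. Of these, TRAF1 lost its call in 4 of the other settings (adjusted p = 0.053 with the replicate block) and TNIP2 with only the 2 groups fitted (0.074), and without single libraries the count was 6 to 8: TRAF1 or TNIP2 or both were lost without any one of the medium libraries or of compound replicates 2 and 3. With TNF-α and knockdown 9 rose (12.9% of all genes), and TRAF2 had an adjusted p of 0.052. TRAF2 gained a call with a pseudocount of 0.01 (0.05 after rounding), at a mean FPKM of at least 1 (0.043) and with a fixed sum (0.018). It also gained one without medium replicate 2 (0.015). RIPK1 lost its call with only the 2 groups fitted (0.059). BIRC2 lost its call in 5 other settings (0.059 with the replicate block) and without medium replicate 1 (0.062), medium replicate 2 (0.13) or knockdown replicate 2 (0.11). TNFAIP3 was 22.6-fold and 43.7-fold above medium in these groups. With knockdown against TNF-α+Bufotenidine, 4 of 10 rose (7.85% of all genes), TNFAIP3 by 0.95, CYLD by 0.67, BIRC3 by 0.90 and TRAF1 by 0.93 on the log2 scale. TRAF1 kept its call in only 5 of the 10 other settings that tested it and in 1 of 6 omissions. The settings that lost it were the replicate block (adjusted p = 0.067), a pseudocount of 0.01 (0.06), no filter (0.092), quantile normalization (0.057) and only the 2 groups fitted (0.089). BIRC3 lost its call with only the 2 groups fitted (0.051). The calls of BIRC3 and TRAF1 were both lost without compound replicate 1 (0.078 and 0.15), compound replicate 2 (0.072 and 0.14) or knockdown replicate 2 (0.071 and 0.067). That of TRAF1 was also lost without knockdown replicate 1 or 3 (0.1 for each). TRAF3 had 13.6, 13.7 and 13.7 FPKM as the means of the 3 groups given TNF-α, with no neighbouring pair apart beyond its spread.

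The other genes of the pathway, 59 in 7 lists, were taken as a comparison. Some stand in more than 1 list, and 54 passed the filter. With TNF-α 10 rose and 0 fell, where 3.22% of all genes rose. Of the NF-κB subunits and inhibitors 6 of 8 rose, led by RELB (from 0.821 to 16.3 FPKM, log2 4.18 ± 0.14), NFKB2 (2.40 ± 0.11) and NFKBIA (2.17 ± 0.068), the gene for the inhibitor IκBα. RELB and NFKB2 encode the subunits of the non-canonical arm and were the 2 of 6 that rose in that list. In 4 other lists 1 gene each rose: the death inhibitor CFLAR of 7 proximal genes, the ligase PELI1 of 14 ubiquitin enzymes, the chain-binding OPTN of 7 deubiquitinases and partners, and the kinase IKBKE of 10 kinases (named here after their values were seen). Of 5 other apoptosis inhibitors and antagonists 0 rose. The 3 genes of the linear ubiquitin ligase complex, RNF31, RBCK1 and SHARPIN, had log2 changes of −0.06, −0.01 and −0.11.

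With the compound 0 of the 54 were called by limma against TNF-α, 15 had an unadjusted p under 0.05 (12 higher and 3 lower, where 9.6% of all genes were higher and 10.5% lower at that level), and voom called 2 of them against 236 of all genes, RBCK1 and TRAF4, both higher (named after their values were seen). With HTRA2 knockdown 12 rose and 2 fell, where 9.35% of all genes rose and 8.08% fell. Among those with a mean of at least 1 FPKM the largest rises were those of CFLAR (0.97 ± 0.11), CASP10, a death receptor caspase (0.89 ± 0.097), and CD40, a receptor that signals through the TRAF proteins (0.77 ± 0.10). Below that level the NF-κB subunit REL (mean 0.681 FPKM, named after its values were seen) rose by 0.83 ± 0.21 (adjusted p = 0.018). The genes that fell were HTRA2 itself and UBE2N (−0.44 ± 0.10), a ubiquitin-conjugating enzyme that works with TRAF ligases. NFKBIA rose by 0.39, NFKB2 by 0.55 and OPTN by 0.76 (named after their values were seen). The median change was 0.12 over the 54, against 0.41 for the 10 members.

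**Figure D5:**
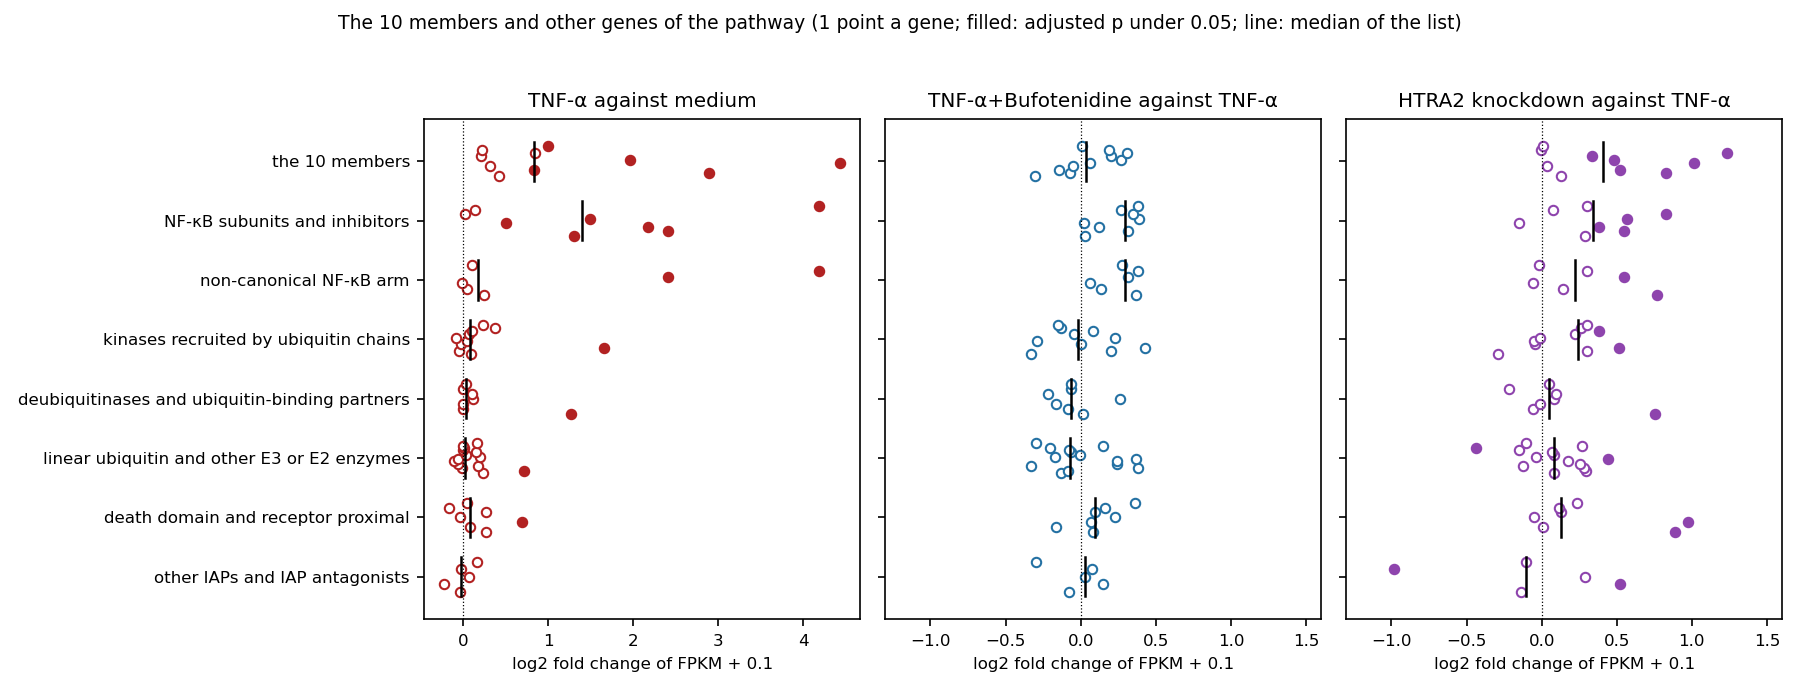
Log2 fold change of FPKM + 0.1 (x axis) of the 10 members (top row) and of the tested genes of 7 pathway lists, 1 point a gene, in 3 comparisons; filled points have an adjusted p under 0.05 and the black line is the median of the row. With TNF-α the medians of the members (0.84) and of the NF-κB subunits and inhibitors (1.39) lie to the right of the others, and the middle panel has no filled point.

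Over the 12 libraries the genes most like each member were ranked by Pearson's r of log2(FPKM + 0.1), as a description, among 11176 genes with a mean of at least 1 FPKM. For TNFAIP3 they were IRAK2, INHBA and NFKBIA (r of 0.996 to 0.999). TNIP1 was closest to NFKB2 (0.998), then GPRC5B and NFKBIA. BIRC3 was closest to OLR1, HDAC9 and NFE2L3, TRAF3 to WWC1, ETS1 and RELB, and CYLD to NCOA7, CD47 and KYNU. TRAF1 went most with TNC, KLF4 and CXCL10. For BIRC2 (CAB39, CLK1 and REST), RIPK1 (NT5C2, XCL1 and GRB10), TRAF2 (PFKFB4, SMPD2 and PROSER2) and TNIP2 (TAPBPL, TNKS1BP1 and TINAGL1) the highest r was 0.955 to 0.982. The libraries fall into the study's 4 groups, and the points of each r share these groups and their libraries. Among the members, BIRC2 and TRAF2 were the least alike (r = 0.03).

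In the hg38 coordinates of the table TNFAIP3 lies at chr6:137867188-137883312 and RIPK1 at chr6:3063991-3115187, both on the plus strand. TNIP1 is at chr5:151029945-151093577 and TNIP2 at chr4:2741648-2756376, both on the minus strand. CYLD is at chr16:50742050-50801935 and TRAF3 at chr14:102777476-102911500, both on the plus strand. TRAF1 (chr9:120902393-120929173, minus strand) and TRAF2 (chr9:136881912-136926607, plus strand) share a chromosome, and BIRC3 (chr11:102317450-102339403) ends shortly before BIRC2 (chr11:102347211-102378670) begins on the same strand. Exons of 3 members overlap a gene on the opposite strand in the annotation of the table (GENCODE 29 coordinates for all 10). The overlap covered 5.63% of the exon bases of RIPK1, 1.88% of those of TNFAIP3 and less of CYLD. Strand was not stated for the counting, so reads there cannot be assigned. BIRC2 and BIRC3, and TRAF1 and TRAF2, shared no identical run of 50 bases between their transcripts.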

How the data were processed

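Human NCM460 cells were profiled by RNA-seq in 12 libraries, 3 per group, grouped by the labels. The values are FPKM per gene as deposited by the authors. The submitters' processing notes name CASAVA 1.8, HISAT2 2.0.4, HTSeq 0.9.1 and hg38, and gene coordinates were those of GENCODE 29 for 99.8% of the 58735 genes. FPKM multiplied by gene length and by 1 library size per library, inferred from the steps between the values, gave whole reads (within 0.01) for 100% of values, and the libraries held 31008429 to 37624399 reads on genes.

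Genes with a mean of at least 0.1 FPKM (18079) were fitted as log2(FPKM + 0.1) with limma 3.58.1 in R 4.3.3 (1 mean per group, 8 residual degrees of freedom, empirical Bayes with trend), with Benjamini-Hochberg adjustment over all of them. A gene was called at an adjusted p under 0.05, and every adjusted p and interval is from this fit unless another test is named. Fold changes are on the log2(FPKM + 0.1) scale, which understates those of low genes such as TRAF1. Ratios were tested by 2-sided exact permutation. The script was tested on simulated counts. Alternatives were other pseudocounts, filters and scalings, the fit of 2 groups, no trend, a replicate block, limma voom on the recovered reads and leaving out each library.

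All 10 members are named. From the pathway lists, up to 3 called genes that rose and 3 that fell most per comparison, among those with a mean of at least 1 FPKM, are named, with the further ones named as chosen afterwards. The members and all lists were chosen with earlier results of these data known. Replicate numbers did not pair the libraries (correlation of deviations −0.10 to 0.04 over 18 same-numbered pairs). Promoters are from RefSeq (GRCh38.p14). Protein sequences were not used here.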

Additional observations from a re-analysis of the deposited data

How the results depend on the processing

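With TNF-α against medium, 5 members were called under each of the 11 other settings and each of the 6 omissions of a library, and with the compound against TNF-α 0 were. With knockdown against TNF-α the count was 4 to 6: BIRC3 lost its call with no filter (adjusted p = 0.051) and, like TNIP2, without some libraries, and TRAF1 was not tested at a mean FPKM of at least 1. With knockdown against TNF-α+Bufotenidine (4 called) other settings left 3 to 5, among them TNIP1 gained in 3 and TRAF2 called lower with only the 2 groups fitted (adjusted p = 0.048), and omissions left 2 to 4. Against medium the compound gave 6 to 8 members and knockdown 7 to 10. By the 2-fold rule with TNF-α, 3 members passed on FPKM + 0.1 and 5 on the ratio of mean FPKM, an alternative chosen after seeing the data. The replicate block, whose numbers do not pair the libraries, left 5, 0 and 6 members called in the main comparisons, with 600, 1 and 2660 genes. All genes called with TNF-α against medium were 742 (582 higher) and 392 with only the 2 groups fitted; voom gave 590 higher and 272 lower. For knockdown they were 3152 (1691 higher) and 2015 to 3337 over omissions, and a fixed sum gave 1983 higher and 1138 lower. For the compound they were 7, and 3 with a pseudocount of 1, 127 at a mean FPKM of at least 1 (78 higher), 4 after quantile normalization, 15 with a fixed sum, 911 with only the 2 groups (473 higher), 1 without trend, 1 with the block, 236 by voom (139 higher) and 1 to 5 over omissions. The cause was not tested.

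The values that changed sign were changes of members not called in the comparison concerned, and the log2 ratio of TRAF1 to TRAF2. For the compound against TNF-α, TRAF3 was −0.0048 after quantile normalization, −0.034 with a fixed sum and −0.027 by voom. Omissions gave −0.048 to 0.046 for TRAF3, −0.16 to 0.21 for TNFAIP3, −0.27 to 0.060 for BIRC3, −0.095 to 0.0022 for RIPK1 and −0.15 to 0.42 for the log2 ratio of TRAF1 to TRAF2. For knockdown against TNF-α, TRAF2 was 0.0029 after quantile normalization and 0.040 with a fixed sum, and omissions gave −0.063 to 0.042 for TRAF2, −0.042 to 0.049 for TRAF3, −0.0059 to 0.073 for RIPK1 and −0.056 to 0.24 for BIRC2. Omissions gave −0.042 to 0.23 for BIRC2 with the compound against medium and −0.033 to 0.058 for TRAF3 with knockdown against the compound. TRAF1 in medium, with 16 to 28 reads, is the value most limited by depth.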
